A study of Homo sapiens with 6 samples.

Results

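A gene-poor stretch of the long arm of human chromosome 5, from 5q14 to 5q23, was examined for the chromatin occupancy of the kinase CDK2 and the poly(ADP-ribose) polymerase PARP1. Its members were the windows of 10 kb that start between 81000001 and 125990001 on chromosome 5 (hg19, 1-based) and hold a mean of at least 10 reads over the 6 libraries. Of the 4500 windows in these 45 Mb, 4490 met the minimum, out of 278395 that did so genome-wide. They made up 25.6% of the windows compared on chromosome 5. The stretch was described in 45 blocks of 1 Mb.

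The study asked how CDK2 activates PARP1 in the progestin response of breast cancer cells, and used chromatin immunoprecipitation with sequencing (ChIP-seq) in T47D-MTVL cells. This line derives from the T47D human breast cancer line and carries an integrated reporter under a mouse mammary tumour virus promoter. Every group was held in hormone-depleted serum and then in serum-free medium. Cells exposed to 10 nM R5020, a synthetic progestin, for 5 or 30 min were set against untreated cells of 0 min, with 1 library for each antibody and time. No value below therefore carries an error between replicates, and each comparison is between 2 libraries.

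CDK2 is a cyclin-dependent kinase best known for its work with cyclins E and A at the entry into and passage through S phase. PARP1 is an abundant nuclear enzyme that binds nucleosomes and broken DNA and attaches ADP-ribose chains to itself, to histones and to other proteins. Gene-poor bands of this kind are in general rich in A and T, replicate late and often lie at the nuclear lamina, whereas gene-rich bands replicate early and lie further inside. In a ChIP-seq library most reads fall outside sharp peaks, so the read density over 1 Mb describes how reads are spread over broad domains and not binding at single sites.

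In RefSeq gene order (GRCh38.p14), the stretch from ATG10 to ALDH7A1, which are known to lie near its ends, lists 110 of the 904 protein-coding genes of chromosome 5, or 12.2%. It also lists 208 of the 1015 long non-coding RNA genes and 11 of the 77 miRNA genes of that chromosome. Among the coding genes, in order, are VCAN, for a matrix proteoglycan, RASA1, for a Ras GTPase-activating protein, MEF2C, for a transcription factor of muscle and neurons, NR2F1, for an orphan nuclear receptor, ERAP1, for a peptidase that trims antigenic peptides, CHD1, for a chromatin remodeller, APC, for a tumour suppressor of the Wnt pathway, and LOX, for an enzyme that cross-links collagen. The gene table is of another build than the counts, so no window or block was assigned to a gene.

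The 6 libraries held between 40097131 and 63448449 reads, and densities are given in RPM, the reads of a window scaled to a library of 1000000 reads. Each ratio is scaled by library totals. Its 95% interval was widened by the dispersion of each library, which is the variance between neighbouring windows over that of independent reads. In the CDK2 libraries of 0, 5 and 30 min the dispersion was 7.43, 52.2 and 24.0. In the PARP1 libraries of these times it was 6.11, 11.4 and 8.62. Such intervals cover counting error and local unevenness only.

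Before hormone both antibodies gave the same picture of the region. It held 835019 CDK2 reads, 1.85% of that library, and 1038484 PARP1 reads, 1.86%. The ratio of CDK2 to PARP1 was 0.994 (widened 95% interval 0.987 to 1.00), and in 0 of the 45 blocks did its interval exclude 1. Among all 2811 blocks the interval lay below 1 in 1.85% and above 1 in 1.42%, so few blocks excluded 1 anywhere. The median window held 188 CDK2 and 238 PARP1 reads, 1.26 and 1.31 times the median of all windows compared in the same library. On the rest of chromosome 5 these medians were 194 CDK2 and 241 PARP1 reads, so the region lay on a chromosome that was densely covered as a whole. Copy number was not measured.

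Along the region the density before hormone was nearly level. Over the 45 blocks, CDK2 at 0 min ran from 3.67 to 4.52 RPM per window with a median of 4.16, and PARP1 at 0 min ran from 3.64 to 4.55 with a median of 4.18. The densest were 102000001 to 103000000, with 4.44 for CDK2 and 4.55 for PARP1, 117000001 to 118000000, with 4.45 and 4.48, and 124000001 to 125000000, with 4.50 and 4.37. The 3 thinnest lay side by side at 98000001 to 99000000, 97000001 to 98000000 and 99000001 to 100000000, with 3.64 to 3.74 for both antibodies. With the next 2 blocks they formed a run from 97000001 to 102000000 under the lower quartile of the region, a stretch picked out after its values were seen. In it the median block had 3.74 CDK2 and 3.72 PARP1 RPM per window, against 4.20 and 4.20 in the other 40 blocks. Of the 132 windows whose mean was under 0.5 times the regional median of 219 reads, 37 lay in that run. The run held 494 of the 4490 windows compared, and since low density chose it, this count is a description.

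After hormone the blocks of the region spread further apart. The coefficient of variation of the read density over the 45 blocks was 5.22% at 0 min, 7.13% at 5 min and 10.9% at 30 min in the CDK2 libraries. In the PARP1 libraries it was 5.00% at 0 min, 8.78% at 5 min and 7.69% at 30 min. Counting error with the dispersion of each library would alone give 2.00%, 4.61% and 4.06% in the CDK2 series and 1.63%, 2.27% and 1.86% in the PARP1 series. The spread was thus larger at 5 and 30 min than at 0 min for both antibodies, and in each library larger than the unevenness of neighbouring windows gives. That unevenness rose as well, most for CDK2 at 5 min. The region's blocks did not diverge more than others. Their log2 ratios to 0 min had standard deviations of 0.0806 and 0.118 for CDK2 at 5 and 30 min, against 0.0953 and 0.205 over all blocks. For PARP1 these were 0.0822 and 0.0620, against 0.151 and 0.108.

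**Figure D1:**
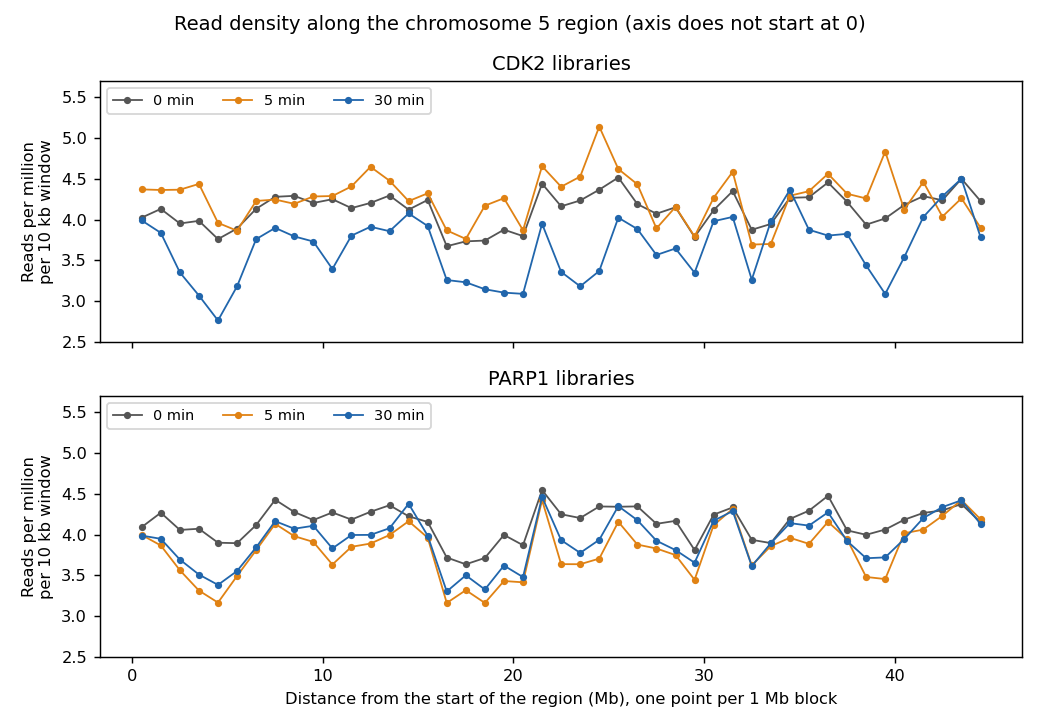
RPM per 10 kb window (vertical axis, starting at 2.5) in each of the 45 blocks of 1 Mb, against distance from the start of the region in Mb, for CDK2 (top) and PARP1 (bottom) at 0, 5 and 30 min. Both 0 min profiles run between 3.6 and 4.6, CDK2 at 30 min drops to 2.76 in its lowest block, and PARP1 at 5 min drops to 3.16.

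For PARP1 at 5 min the region was lower than before hormone. It held 1000497 reads, 1.71% of the library, at 5 min against 1.86% at 0 min, a ratio of 0.919 (0.911 to 0.926). Of the 45 blocks, 43 were below 1, and the widened interval lay below 1 in 31 of them (68.9%) and above 1 in 0. Among all 2811 blocks of the genome the interval lay below 1 in 29.8% and above 1 in 29.0%, and the median block had 0.997. The region's median block, with 0.920, stood at the 23.2 percentile of all blocks. The lower values thus ran along nearly the whole 45 Mb, at a depth that many blocks elsewhere shared.

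The deepest PARP1 blocks at 5 min were 85000001 to 86000000, with 18515 reads at 5 min against 21753 at 0 min and a ratio of 0.812 (0.765 to 0.861), and its neighbour 84000001 to 85000000, with 19379 against 22709 reads and 0.814 (0.768 to 0.862). They ranked at the 0.925 and 1.21 percentiles of all blocks. At the far end of the region, 124000001 to 125000000 had 25878 against 24400 reads, a ratio of 1.01 (0.960 to 1.06), and 125000001 to 126000000 had 1.01 (0.957 to 1.06). These last 2 were the highest in the region, and neither was distinguishable from no difference.

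At 30 min the PARP1 ratio to 0 min was 0.947 (0.940 to 0.954), with 1118565 reads or 1.76% of the library at 30 min. The interval lay below 1 in 24 of 45 blocks (53.3%), against 704 of all 2811 blocks, and above 1 in 0 of 45, against 701 of all blocks. The lowest were again 84000001 to 85000000, with 0.862 (0.820 to 0.906), and 85000001 to 86000000, with 0.867 (0.824 to 0.913). The highest was 95000001 to 96000000, with 27777 reads at 30 min against 23562 at 0 min and a ratio of 1.04 (0.989 to 1.09). Both ratios to 0 min share the same untreated library, so their likeness is not independent.

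Set directly against 5 min, PARP1 at 30 min was higher in the region, with a ratio of 1.03 (1.02 to 1.04). In 38 of the 45 blocks the ratio exceeded 1, and the interval lay above 1 in 6 (13.3%) and below 1 in 0, against 5.76% and 7.29% of all blocks. The highest were 103000001 to 104000000, with 1.08 (1.02 to 1.15), and 107000001 to 108000000, with 1.08 (1.02 to 1.14). The lowest was 121000001 to 122000000, with 0.982 (0.928 to 1.04).

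CDK2 at 30 min was lower in the region by a larger factor. It held 657215 reads, 1.64% of the library, at 30 min against 1.85% at 0 min, a ratio of 0.885 (0.874 to 0.897). The interval lay below 1 in 31 of 45 blocks (68.9%) and above 1 in 0, whereas among all blocks it lay below 1 in 27.9% and above 1 in 25.4% of them. The median block of the region, 0.888, stood at the 21.6 percentile of all blocks. Scaled on the 25% of windows with the lowest means, CDK2 at 30 min had 0.964 and PARP1 at 5 min 0.949, the other order. Relative to the median of all blocks they had 0.897 and 0.921.

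The block 85000001 to 86000000 had 11070 CDK2 reads at 30 min against 16961 at 0 min, a ratio of 0.734 (0.664 to 0.812), at the 0.0356 percentile of all blocks. Its density was 3.76, 3.96 and 2.76 CDK2 RPM per window at 0, 5 and 30 min, so that the 30 min value lay below both others. The next lowest, 104000001 to 105000000, had 12750 against 19098 reads and 0.751 (0.684 to 0.825). The highest were 115000001 to 116000000, with 17500 against 19246 reads and 1.02 (0.942 to 1.11), and 123000001 to 124000000, with 1.01 (0.931 to 1.10), neither of which differed from 1 beyond its interval.

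**Figure D2:**
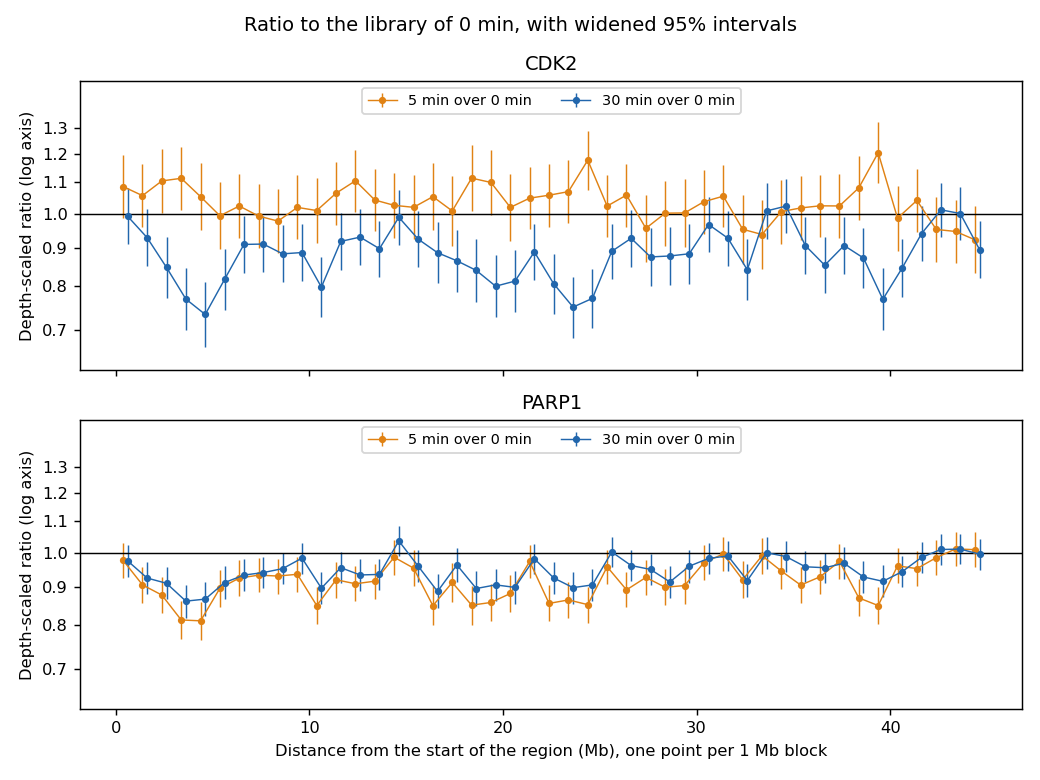
Depth-scaled ratio to the 0 min library (log axis) in each 1 Mb block, against distance from the start of the region in Mb, for CDK2 (top) and PARP1 (bottom), with bars for the widened 95% interval. CDK2 at 30 min and PARP1 at both times lie mostly below 1, with shared low points around 4 and 24 Mb, while CDK2 at 5 min lies mostly at or above 1.

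CDK2 at 5 min went the other way. The region held 1106381 reads, 1.91% of the library, at 5 min against 1.85% at 0 min, a ratio of 1.03 (1.02 to 1.05), and 35 of 45 blocks were above 1. The interval lay above 1 in 6 blocks (13.3%) and below 1 in 0, against 4.73% and 4.16% of all blocks. This small difference depends on how the uneven 5 min library is summarised, since with the median window in place of the sum the ratio was 0.980. Divided by the same ratio of the median window of all windows compared, it was 1.01.

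The highest CDK2 ratios at 5 min were in 120000001 to 121000000, with 27937 reads at 5 min against 18103 at 0 min and 1.20 (1.10 to 1.32), and in 105000001 to 106000000, with 29711 against 19697 reads and 1.18 (1.08 to 1.29). They stood at the 99.8 and 99.5 percentiles of all blocks. At 30 min both blocks were in the lowest 10% of all blocks, with densities of 4.01, 4.83 and 3.09 CDK2 RPM per window at 0, 5 and 30 min in the first and 4.37, 5.14 and 3.37 in the second. The lowest at 5 min were 125000001 to 126000000, with 0.923 (0.833 to 1.02), and 114000001 to 115000000, with 0.938 (0.845 to 1.04).

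Between 30 and 5 min, CDK2 in the region had a ratio of 0.856 (0.841 to 0.872), with the interval below 1 in 28 of 45 blocks (62.2%) against 23.6% of all blocks. The block 120000001 to 121000000, with 12377 reads at 30 min against 27937 at 5 min and a ratio of 0.639 (0.566 to 0.721), was the lowest of all 2811 blocks in the genome. The block 105000001 to 106000000 followed within the region with 0.655 (0.583 to 0.736). The highest, 114000001 to 115000000 and 123000001 to 124000000, had 1.07 (0.950 to 1.22) and 1.06 (0.943 to 1.20).

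The region was then compared with the rest of chromosome 5 and with chromosomes 4 and 13, which are also poor in genes. For CDK2 at 30 min against 0 min its ratio of 0.885 stood beside 0.987 (0.980 to 0.994) for the rest of chromosome 5. Chromosome 4 had 0.929 (0.922 to 0.936) and chromosome 13 had 0.946 (0.937 to 0.956). For PARP1 at 5 min its 0.919 stood beside 0.987 (0.982 to 0.991), 0.947 (0.942 to 0.952) and 0.952 (0.946 to 0.958) in the same order. For PARP1 at 30 min its 0.947 stood beside 0.990, 0.964 and 0.973, and for CDK2 at 5 min its 1.03 stood beside 1.00, 1.02 and 1.02. Divided by the ratio of the rest of chromosome 5, the region had 0.898 (0.884 to 0.911) for CDK2 at 30 min, 0.931 (0.922 to 0.940) for PARP1 at 5 min, 0.956 (0.948 to 0.964) for PARP1 at 30 min and 1.03 (1.02 to 1.05) for CDK2 at 5 min. These intervals describe the libraries, and with 1 library per group the difference between regions was not tested over replicates.

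Relative to the median of all blocks, a measure that does not depend on how libraries are scaled, the region's ratio was 0.897 (0.885 to 0.909) for CDK2 at 30 min, 0.921 (0.914 to 0.929) for PARP1 at 5 min, 0.946 (0.939 to 0.953) for PARP1 at 30 min and 1.04 (1.02 to 1.05) for CDK2 at 5 min, each against 0 min. Single blocks as low as those of the region were also found elsewhere. The lowest block of chromosome 4 had 0.725 for CDK2 at 30 min and 0.779 for PARP1 at 5 min. Against the rest of chromosome 5 the ranges differed most at the top. The highest of the region's 45 blocks had 1.02 for CDK2 at 30 min and 1.01 for PARP1 at 5 min. The highest of the 131 blocks on the rest of the chromosome had 1.37 and 1.27, and a highest value tends to grow with the number of blocks. The upper quartiles were 0.927 and 0.957 in the region, against 1.07 and 1.05.

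**Figure D3:**
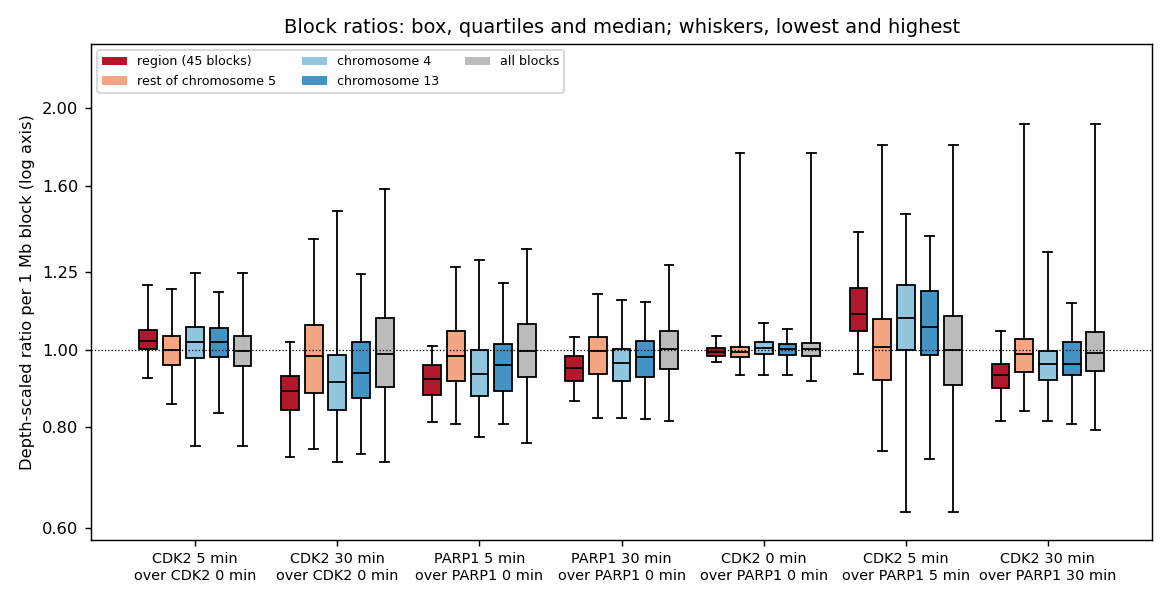
Depth-scaled ratio per 1 Mb block (log axis) for 7 comparisons, with boxes for the median and quartiles and whiskers for the lowest and highest block, in the region, the rest of chromosome 5, chromosome 4, chromosome 13 and all 2811 blocks. The region's median is 0.888 for CDK2 at 30 min and 0.920 for PARP1 at 5 min against 0 min, and its boxes at 0 min between antibodies are centred on 0.993.

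The ratio of CDK2 to PARP1, close to 1 before hormone, lay above 1 at 5 min and below 1 at 30 min with library totals. The 5 min libraries gave a CDK2 to PARP1 ratio of 1.12 (1.10 to 1.14), with 1106381 CDK2 and 1000497 PARP1 reads, and the interval lay above 1 in 23 of 45 blocks (51.1%) against 21.2% of all blocks. Highest were 120000001 to 121000000, with 1.40 (1.27 to 1.54), and 105000001 to 106000000, with 1.39 (1.26 to 1.52). Lowest were 125000001 to 126000000, with 0.931 (0.840 to 1.03), and 123000001 to 124000000, with 0.954 (0.861 to 1.06). At 30 min the ratio was 0.930 (0.918 to 0.942), with the interval below 1 in 18 blocks (40.0%) against 12.2% of all blocks. Scaled on the 25% of windows with the lowest means it was 0.991 (0.978 to 1.004), an interval that includes 1. With library totals the lowest blocks at 30 min were 85000001 to 86000000, with 0.816 (0.739 to 0.901), and 120000001 to 121000000, with 0.830 (0.755 to 0.912). The highest, also with library totals, was 115000001 to 116000000, with 1.05 (0.972 to 1.14). Because antibodies differ in yield, such a ratio compares the distribution of reads and not the amounts bound.

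A group of 10 blocks, those of the region within the lowest 10% of all blocks for CDK2 at 30 min against 0 min, carried the low points. They were 84000001 to 87000000, 91000001 to 92000000, 100000001 to 102000000, 103000001 to 106000000 and 120000001 to 121000000, and their CDK2 ratios at 30 min ran from 0.734 to 0.818. Since that ratio chose them, it is given as a description. In the PARP1 libraries, which had no part in the choice, the median of these 10 at 5 min against 0 min was 0.854, from 0.812 to 0.897, with 8 of 10 in the lowest 10% of all blocks. The other 35 blocks had a PARP1 median of 0.931, from 0.850 to 1.01, with 2 among that 10%. Over all 2811 blocks these log2 ratios of CDK2 at 30 min and PARP1 at 5 min had a Pearson correlation of 0.907. Blocks low for the first thus tended to be low for the second across the genome. The PARP1 share in blocks chosen this way genome-wide was not computed.

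For CDK2 at 5 min against 0 min, which shares the untreated library with the choice, the 10 blocks had a median of 1.06, from 0.993 to 1.20, and the other 35 a median of 1.02, from 0.923 to 1.11. Before hormone the 10 blocks had median densities of 3.998 CDK2 and 4.07 PARP1 RPM per window, against 4.19 and 4.18 in the others.

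Over the 45 blocks, which share libraries and are neighbours on 1 chromosome, the log2 ratio of CDK2 at 30 min to 0 min had a Pearson correlation of 0.798 (Spearman 0.753) with that of PARP1 at 5 min to 0 min. No library is common to these ratios, and over all 2811 blocks the correlation was 0.907. Depth and base composition of the blocks are shared by both antibodies. For CDK2 at 5 min the correlation with PARP1 at 5 min was -0.599 (Spearman -0.533) in the region and -0.384 over all blocks. Adjacent blocks resembled each other, with a correlation of 0.520 over 44 neighbouring pairs for CDK2 at 30 min and 0.374 for PARP1 at 5 min, but only 0.0604 for CDK2 over PARP1 at 0 min.

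**Figure D4:**
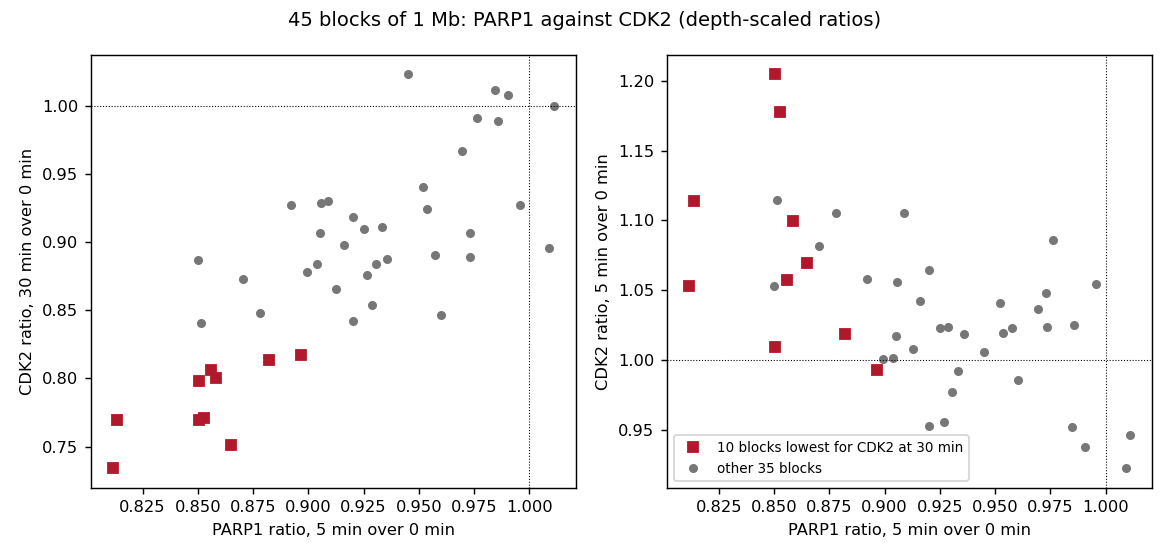
Depth-scaled PARP1 ratio of 5 min over 0 min (horizontal) against the CDK2 ratio of 30 min over 0 min (left) and of 5 min over 0 min (right), for the 45 blocks of 1 Mb, with squares for the 10 blocks lowest for CDK2 at 30 min. The left cloud slopes upwards (Pearson 0.798) and the right one downwards (-0.599).

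In segments of 5 Mb the same relief appeared at lower resolution. The segment 101000001 to 106000000 was lowest for CDK2 at 30 min against 0 min, with 0.807 (0.775 to 0.840), followed by 81000001 to 86000000, with 0.857 (0.822 to 0.892), and 116000001 to 121000000, with 0.863 (0.829 to 0.898). The intervals of these last 2 overlap. For PARP1 at 5 min these 3 segments had 0.887 (0.866 to 0.909), 0.878 (0.856 to 0.900) and 0.906 (0.884 to 0.929). The segment 111000001 to 116000000 had 0.954 (0.918 to 0.992) for CDK2 at 30 min and 0.965 (0.942 to 0.988) for PARP1 at 5 min. The last segment, 121000001 to 126000000, had 0.940 (0.905 to 0.976) and 0.984 (0.961 to 1.01), and its CDK2 ratio at 5 min, 0.970 (0.928 to 1.01), was the lowest of the 9.

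Single windows were called where the scaled counts differed by 2 times or more and an exact binomial test on both counts, adjusted over all 278395 windows, gave a value under 0.05. Such a call compares the reads of 2 libraries and not the conditions. For CDK2 at 30 min against 0 min, 64 windows (1.43%) were called higher, against 5.46% of all windows, and 575 (12.8%) were called lower, against 11.5%. Scaled on the 25% of windows with the lowest means, 106 were higher and 439 lower. In either direction these were 545 of 4490 windows, and that scaling called 17.1% of all windows. With library totals, the share of higher windows lay below the background, and that of lower windows was near it.

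For CDK2 at 5 min against 0 min, 245 windows of the region (5.46%) were called higher, against 6.21% of all windows, and 529 (11.8%) lower, against 16.2%. With the scaling on windows of lowest mean, the same counts were 672 higher and 324 lower, so their direction rests on the scaling. In either direction these were 996 of 4490 windows, and that scaling called 26.1% of all windows. Between 30 and 5 min, 451 CDK2 windows (10.0%) were higher, against 18.4% of all windows, and 815 (18.2%) lower, against 15.1%, or 331 and 1166 with the other scaling. Together the latter counts made up 1497 of 4490 windows, and that scaling called 34.956% of all windows in either direction.

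PARP1 had few called windows. At 5 min against 0 min, 4 (0.0891%) were higher, against 0.893% of all windows, and 66 (1.47%) lower, against 1.73%. At 30 min against 0 min, 4 were higher, against a background of 0.406%, and 13 (0.290%) lower, against 0.587%, or 5 and 9 with the scaling on windows of lowest mean. In either direction that scaling called 0.983% of all windows. Between 30 and 5 min, 37 (0.824%) were higher, against 1.3% of all windows, and 7 (0.156%) lower, against 0.8%. Windows of the region are deeper than the median window, so shares called in it and in the genome do not rest on equal depth.

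Between antibodies, CDK2 exceeded PARP1 in 8 windows at 0 min (0.178%), against 0.442% of all windows, and was below it in 8, against 0.733%. At 5 min it was above in 430 (9.58%), against 8.02%, and below in 480 (10.7%), against 17%, or 910 and 288 with the scaling on windows of lowest mean. In either direction that scaling called 1198 of 4490 windows in the region and 27.9% of all windows. At 30 min it was above in 66 (1.47%), against 3.84%, and below in 451 (10.0%), against 10.3%. Once counts were divided by the dispersion of the comparison, 0 windows of the region remained called in any of the 6 comparisons between times or between antibodies at 5 min. At 0 and 30 min the window 99380001 to 99390000 alone remained in the region. Of all 278395 windows, 0 to 7 remained in each comparison between times. Between antibodies 12, 8 and 9 remained at 0, 5 and 30 min, so almost none remained anywhere.

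**Figure D5:**
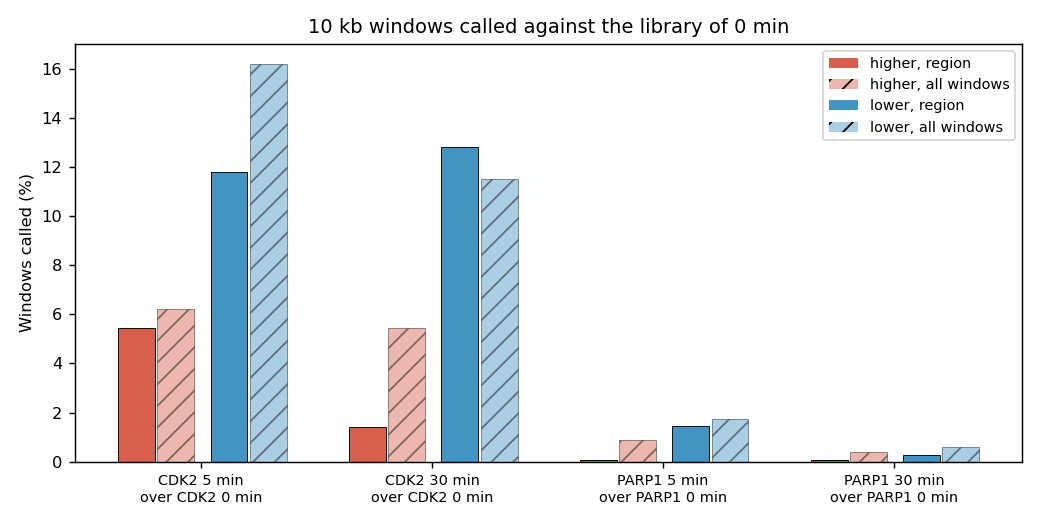
Percentage of windows called higher (red) or lower (blue) than at 0 min, in the region (solid, 4490 windows) and in all 278395 windows (hatched). For CDK2 at 30 min 12.8% of the region's windows were lower against 11.5% of all, and 1.43% were higher against 5.46%.

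That window, 99380001 to 99390000, was the most covered of the region. It held 886, 1473 and 879 CDK2 reads at 0, 5 and 30 min, between 4.71 and 6.24 times the regional median window, and 414, 439 and 360 PARP1 reads, between 1.42 and 1.96 times. The ratio of CDK2 to PARP1 was 2.65 (interval on counts divided by the dispersion, 2.06 to 3.43) at 0 min, 3.40 (1.87 to 6.55) at 5 min and 3.86 (2.37 to 6.49) at 30 min. The second most covered, 93900001 to 93910000, held 434, 713 and 485 CDK2 reads and 296, 318 and 298 PARP1 reads, with ratios of 1.81 (1.31 to 2.52), 2.27 (1.06 to 5.19) and 2.58 (1.43 to 4.75). Both windows were chosen by their mean over the 6 libraries, to which the CDK2 counts contributed most, so these ratios are a description. The sources used here do not give the handling of reads with several matches.

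The next most covered windows had their highest counts in the 5 min CDK2 library, which itself raises the mean that chose them. The window 124730001 to 124740000 held 221, 746 and 200 CDK2 reads at 0, 5 and 30 min and between 255 and 319 PARP1 reads. The window 86700001 to 86710000 held 234, 606 and 229 CDK2 reads, and 124830001 to 124840000 held 319, 613 and 239. These are counts as deposited, from libraries of unequal depth.

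At the other end, 12 windows of the region held 0 reads in CDK2 at 5 min and 2 in CDK2 at 30 min, while none did in CDK2 at 0 min or in PARP1. In CDK2 at 5 min that is 0.267% of the region's windows, against 1.43% of all windows compared. The window 89510001 to 89520000 had 0 CDK2 reads at 5 min against 262 at 0 min, at least 112-fold lower with a floor of 3 reads per library, although CDK2 had 195 reads there at 30 min and PARP1 between 300 and 302 at every time. The window 123280001 to 123290000 had 0 against 173, at least 73.9-fold lower, and 223 CDK2 reads at 30 min, and 93450001 to 93460000 had 0 against 159, at least 67.9-fold lower, and 151 CDK2 reads at 30 min. Each of these gaps was thus seen at 5 min and not in the libraries before or after. They were also the 3 foremost windows higher at 30 than at 5 min, at least 93.7-fold, 107-fold and 72.5-fold.

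At 30 min the foremost lower CDK2 window against 0 min was 108600001 to 108610000, with 0 reads against 128, at least 37.9-fold lower. The 5 min CDK2 library held 117 reads in it. Against that 5 min count it was at least 27.1-fold lower. The window 103690001 to 103700000 held 157, 273 and 7 CDK2 reads at 0, 5 and 30 min, a ratio of 0.0502 (95% interval for counting error 0.0198 to 0.106) to 0 min, and 83200001 to 83210000 held 194, 169 and 11, a ratio of 0.0638 (0.0313 to 0.117). PARP1 held between 158 and 281 reads in both at every time. The window 98480001 to 98490000 held 285 CDK2 reads at 5 min and 5 at 30 min.

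Of the windows higher for CDK2, 98740001 to 98750000 held 69 reads at 5 min against 6 at 0 min, a ratio of 8.98 (3.92 to 25.3), 99430001 to 99440000 held 122 against 16, a ratio of 5.95 (3.52 to 10.7), and 120400001 to 120410000 held 201 against 32, a ratio of 4.90 (3.36 to 7.36). By 30 min they held 5, 8 and 50 reads. The foremost at 30 min were 85580001 to 85590000, with 65 against 15 reads and 4.88 (2.75 to 9.20), 115010001 to 115020000, with 198 against 65 and 3.43 (2.58 to 4.61), and 82160001 to 82170000, with 212 against 71 and 3.36 (2.56 to 4.46). In these last windows the 5 min library already stood above 0 min, with 86, 171 and 144 reads.

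PARP1 windows moved over a narrower range. At 5 min against 0 min, 84930001 to 84940000 held 29 against 116 reads, a ratio of 0.238 (0.153 to 0.361), inside the block with the second lowest PARP1 ratio, and returned 124 reads at 30 min. The windows 120230001 to 120240000 and 119000001 to 119010000 held 88 against 252 and 72 against 210 reads, ratios of 0.333 (0.258 to 0.426) and 0.327 (0.247 to 0.429). In 120230001 to 120240000 CDK2 held 440 reads at 5 min against 156 at 0 min. The foremost higher windows were 114780001 to 114790000, with 235 against 101 reads and 2.22 (1.75 to 2.83), 118770001 to 118780000, with 186 against 84 and 2.11 (1.62 to 2.77), and 125070001 to 125080000, with 138 against 63 and 2.09 (1.54 to 2.86).

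At 30 min against 0 min, PARP1 was lower in 100460001 to 100470000, with 91 against 231 reads and 0.346 (0.269 to 0.443), in 82750001 to 82760000, with 63 against 155 and 0.357 (0.262 to 0.482), and in 97930001 to 97940000, with 116 against 257 and 0.397 (0.316 to 0.496). It was higher in 113080001 to 113090000, with 321 against 139 and 2.03 (1.66 to 2.50), in 89440001 to 89450000, with 202 against 83 and 2.14 (1.65 to 2.80), and in 96630001 to 96640000, with 140 against 61 and 2.02 (1.48 to 2.77). In 100460001 to 100470000 CDK2 instead held 205 reads at 30 min against 120 at 0 min. In 82750001 to 82760000 it held 56 against 92, and in 97930001 to 97940000 it held 78 against 191. At 30 min, 0 windows of the region were called both higher for CDK2 and lower for PARP1.

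From 5 to 30 min the foremost PARP1 windows higher at the later time were 92500001 to 92510000, with 169 against 41 reads and 3.80 (2.69 to 5.48), the window 84930001 to 84940000 just named, with 3.94 (2.61 to 6.13), and 85590001 to 85600000, with 51 against 9 and 5.22 (2.55 to 12.1). Lower were 98830001 to 98840000, with 3 against 22 reads and 0.126 (0.0241 to 0.418), 100460001 to 100470000, with 0.392 (0.303 to 0.503), and 114280001 to 114290000, with 163 against 308 and 0.488 (0.401 to 0.592).

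Some windows were called for both antibodies. Of the 66 windows lower for PARP1 at 5 min, 18 (27.3%) were also lower for CDK2 at 30 min, which is 3.13% of the 575 of that list, and 2 were higher. Over the genome, 1108 of the 4817 windows lower for PARP1 at 5 min were also lower for CDK2 at 30 min, while 12.8% of all windows of the region were. Of the same 66, 11 (16.7%) were lower and 7 (10.6%) higher for CDK2 at 5 min, against 22.6% and 11.2% genome-wide. Of the 13 lower for PARP1 at 30 min, 4 (30.8%) were also lower for CDK2 at 30 min, against 25.9% genome-wide. By blocks, both intervals lay below 1 in 22 of 45 blocks at 30 min (48.9%), against 562 of all 2811 blocks. At 5 min the CDK2 interval lay above 1 and the PARP1 interval below 1 in 6 blocks (13.3%), against 3.63% of all blocks, and both lay below 1 in 0 blocks, against 0.640%.

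At the limits of the members, the window 99710001 to 99720000 with the lowest mean that met the minimum held 10 to 23 reads per library, with a mean of 12.8, and its neighbour 99720001 to 99730000 missed it with a mean of 8.83. Of the 10 windows left out, 4 in a row from 91640001 to 91680000 held 0 reads in every library and the other 6 lay between 98760001 and 99730000. The first window of the region had a mean of 218 reads and the last a mean of 155, against 230 and 91.5 in the windows just outside.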

How the data were processed

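ChIP-seq libraries of CDK2 and PARP1 at 0, 5 and 30 min of R5020 in T47D-MTVL cells were analysed. The authors deposited raw read counts in windows of 10 kb, with 1 column per library. The submitters' processing notes name Bowtie 1.0.0 and the build hg19 (GRCh37). Duplicate handling was not stated in them, and no input library was analysed here.

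Windows starting at 126000001 or later were left out. Counts were scaled by library totals (40097131 to 63448449 reads). A block needed at least 50 windows compared. The widened interval takes the variance of the log ratio as the dispersion over the reads, summed over both libraries. Called windows came from a two-sided exact binomial test (2 times the smaller tail, Benjamini-Hochberg). This test was tried on simulated Poisson counts, which lack the dispersion of the real libraries. Block intervals were tried on the same counts without widening, so the widening itself was not checked. Window intervals are Clopper-Pearson. Except where counts were divided by the dispersion, window intervals and floors cover counting error only. PCR copies were not measured.

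Blocks named are the 2 highest and 2 lowest per comparison and the 3 densest and 3 thinnest before hormone. Windows named are up to 3 per direction and comparison between times, at least 100 kb apart, whose interval lies farthest from 1, and the 5 most covered. The region, these rules and the lists were chosen with earlier results of these data known, and the group of 10 blocks after their values were seen. Alternatives were TMM factors (edgeR 4.0.16), median-of-ratios size factors (DESeq2 1.42.0), scaling on the 25% of windows lowest in mean, another count minimum and none, leaving out the 1% highest windows, other block grids and counts divided by the dispersion. edgeR and DESeq2 gave scaling factors only. Software was Python 3.11.15, numpy 2.4.6, scipy 1.17.1, pandas 2.3.3, matplotlib 3.10.9 and R 4.3.3.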

Additional observations from a re-analysis of the deposited data

Results flagged for a closer look

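At 5 min against 0 min, CDK2 and PARP1 lay on opposite sides of 1 in the region as a whole, with both widened intervals excluding 1. The region's CDK2 log2 ratio exceeded that of PARP1 by 0.171. Chromosome 4, with 1.02 (1.01 to 1.03) and 0.947 (0.942 to 0.952), had its antibodies on opposite sides too. So had chromosome 13, with 1.02 (1.01 to 1.04) and 0.952 (0.946 to 0.958). By the median window both antibodies were below 1 in the region, with 0.980 and 0.897. Among the blocks named for these comparisons, both intervals excluded 1 on opposite sides in 120000001 to 121000000, with a log2 difference of 0.502, in 105000001 to 106000000, with 0.466, and in 84000001 to 85000000, with 0.453. With 1 library per antibody and time the difference between the antibodies was not tested. The dispersion of the CDK2 library at 5 min, 52.2, was the highest of the 6, and its part in the difference was not tested.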

How the results depend on the processing

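The 9 region ratios were recomputed under 9 alternatives each, of which the median window in place of the sum, that ratio over the median window of all, and leaving out the 5 most covered windows were chosen after seeing the data. Of these 81 values, 48 moved by less than their interval, 32 moved further and 1 changed side. The value that changed side was CDK2 at 5 min over 0 min, 0.980 by the median window, and 1.01 over the median window of all. With TMM factors the ratios that moved were 1.08 for CDK2 at 5 min and 0.916 at 30 min over 0 min, 0.928 for PARP1 at 5 min over 0 min, and 1.16 at 5 min and 0.960 at 30 min for CDK2 over PARP1. With size factors they were 1.08, 0.922, 0.927, 1.17 and 0.968 in that order. Scaling on the 25% of windows lowest in mean gave 1.32, 0.964, 0.949, 1.38 and 0.991 (0.978 to 1.004, which includes 1), and also 0.733 for CDK2 at 30 over 5 min and 0.971 for PARP1 at 30 over 0 min. That scaling moved the log2 ratio of every window by 0.347 for CDK2 at 5 min, 0.123 at 30 min, -0.224 for 30 over 5 min and 0.306 for CDK2 over PARP1 at 5 min, while the ratio over the median of all blocks does not depend on scaling. By the median window, and then over the median window of all, the ratios were 0.850 and 0.866 for CDK2 at 30 over 0 min, 0.897 and 0.892 for PARP1 at 5 over 0 min, 0.934 and 0.930 at 30 over 0 min, and 1.04 and 1.04 at 30 over 5 min. For CDK2 over PARP1 the 0 min libraries gave 0.977 and 0.965, those of 5 min 1.07 and 1.09, and those of 30 min 0.888 and 0.898. The cause was not tested.

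With counts divided by the dispersion, the called windows of the region were 0 in each comparison but CDK2 over PARP1 at 0 and at 30 min, with 1 each. Over all windows at most 12 were called in any comparison. The other 45 of 54 counts of windows, taken over both directions, stayed within 1.5 times. Blocks below the median of all blocks made up 35.6% for CDK2 at 5 over 0 min on a grid shifted by 500 kb, against 22.2%. For CDK2 over PARP1 at 5 min they made up 15.6% with blocks of 500 kb and 15.6% on the shifted grid, against 8.89%. No paired analysis was possible because each antibody and time had 1 library. Dispersion limits single windows in the CDK2 and the PARP1 libraries, and no interval covers the spread between repeated experiments.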
